A study of Drosophila simulans with 4 samples.

Results

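The comparison was between whole adult males of D. simulans from Gotheron, an orchard site in the Rhône Valley, reared on apple and on cornmeal medium. The methods call the medium that was not fruit axenic, and the design figure of the paper calls it cornmeal. It rested on 2 of the 4 libraries of the study, 1 for each medium, and both libraries were chosen by their labels. The remaining pair came from Mayotte males on banana and on cornmeal, and was used as a reference for how far libraries of 1 population lay apart. The methods state that bacteria had contaminated the natural medium in Mayotte and that immunity genes were left out of the study's tests for that reason; these genes are not marked in the table and were not removed here. Each library was made from 100 males of as many wild-caught females, extracted as 4 RNA pools, and all males were first-generation offspring reared at 25°C and kept on the medium of their parents. The methods give 5 days of aging, and the growth protocol in the labels gives 7 days of growth. The flies descended directly from wild females, and the apple lines and the cornmeal lines came from different mothers of the same site, so that the medium, the families and the library cannot be told apart in Gotheron. With 1 library a side no p-value was computed, and the values describe these 2 libraries.

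Food medium acts on an adult fly through the sugars, proteins and yeasts it holds and through the microbes that grow on it. Gut enzymes, fat body metabolism and antimicrobial peptides are known to follow diet in Drosophila, and whole-body RNA mixes these tissues with muscle, nervous system and the male reproductive tract. The libraries were 3′ cDNA tag libraries, in which a transcript is read from its end alone, so that a value does not grow with gene length. The deposited values, called normalised counts here, are read counts per gene, scaled by a single factor in each library so that all libraries have equal totals. The table gives genes by FlyBase identifier alone, and 0 of these identifiers were found in the reference gene table. Gene functions were therefore not assigned, the tissue label could not be checked against marker genes, and fewer cells of a type cannot be told apart from less RNA per cell.

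Divided by the smallest nonzero value of each library, the deposited values gave 9927634 reads on the listed genes in Gotheron cornmeal and 10086027 in Gotheron apple. The paper gives a higher number of mapped reads per replicate, and the reason for this was not tested. Of the 15358 listed genes, 10844 had a mean normalised count of at least 20 over these 2 libraries and were compared, and 4514 fell under that limit. The mean was 19.7 for the gene just under the limit and 20.02 for the gene just over it. No gene past the limit was at 0 in either library. Differences are given as log2(normalised count + 1) in apple minus the same in cornmeal, so that a positive value is higher in apple, and this scale understates the change of low genes.

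Most genes lay close together in the 2 libraries. The median difference was -0.03, the middle 50% of genes lay between -0.28 and 0.20, and 9244 genes (85.2%) differed by less than 1.5-fold. At least 2-fold apart were 389 genes, of which 199 were higher and 190 lower in apple. These are 1.84% and 1.75% of the genes compared, or 3.59% together. At least 4-fold apart were 16 genes higher in apple and 8 lower, and at least 8-fold 1 higher and 2 lower. For all 389 genes the 95% Clopper-Pearson interval of the ratio left out 1. The limits on the mean and the fold ensure this outcome, so it is no further support for these genes. That interval covers counting error only, and reads amplified by PCR are not independent molecules.

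**Figure D1:**
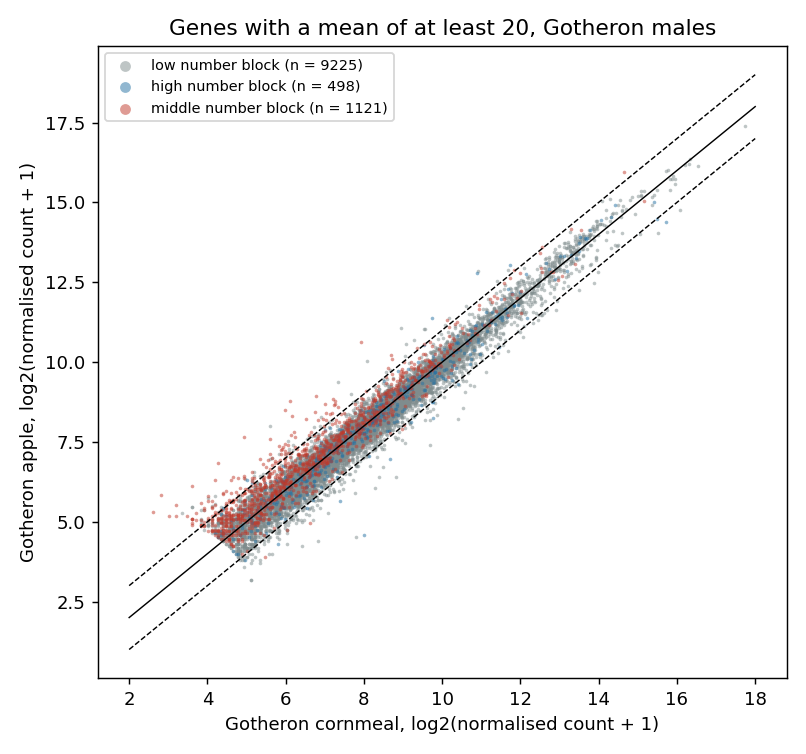
Normalised counts of 10844 genes in the Gotheron cornmeal library (x axis) and the Gotheron apple library (y axis), both as log2(normalised count + 1). Each point is a gene, coloured by the block of identifier numbers it belongs to. The solid line marks equal values and the dashed lines a 2-fold difference. Points of the middle block lie mostly above the solid line, and 199 genes lie at or above the upper dashed line and 190 at or below the lower.

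The Gotheron libraries lay farther apart than the Mayotte libraries. Over the same 10844 genes, the SD of the log2 difference was 0.44 in Gotheron and 0.34 in Mayotte. In Mayotte 109 genes (1.01%) were at least 2-fold higher in banana than in cornmeal and 45 (0.415%) were lower, which together is 1.42% of the genes. Past 8-fold, 6 genes were higher and 0 lower in Mayotte, against 1 and 2 in Gotheron. Both pairs differ in medium, and the banana medium was contaminated, so the Mayotte pair is not a replicate of 1 condition. The part of the contamination in the Mayotte values was not tested, and whether the spreads differ was not tested.

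The wider spread in Gotheron was seen at each level of abundance. Among the 1526 genes with a mean from 20 to 50, the SD was 0.59 in Gotheron and 0.51 in Mayotte, where counting error alone would give a median of 0.36 in Gotheron. Among the 2830 genes from 300 to 1000 it was 0.36 and 0.27, with a counting error of 0.09. Among the 179 genes over 10000 it was 0.44 and 0.28, with a counting error of 0.02. Counting error was a large part of the spread of low genes and a small part of that of abundant genes. The 99th percentile of the absolute Mayotte difference was taken at each level as a yardstick, beyond which 1% of genes lie in Mayotte. In Gotheron 2.75% of the genes from 20 to 50 lay beyond it, between 3.78% and 4.12% at the levels from 50 to 10000, and 7.82% of the genes over 10000.

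**Figure D2:**
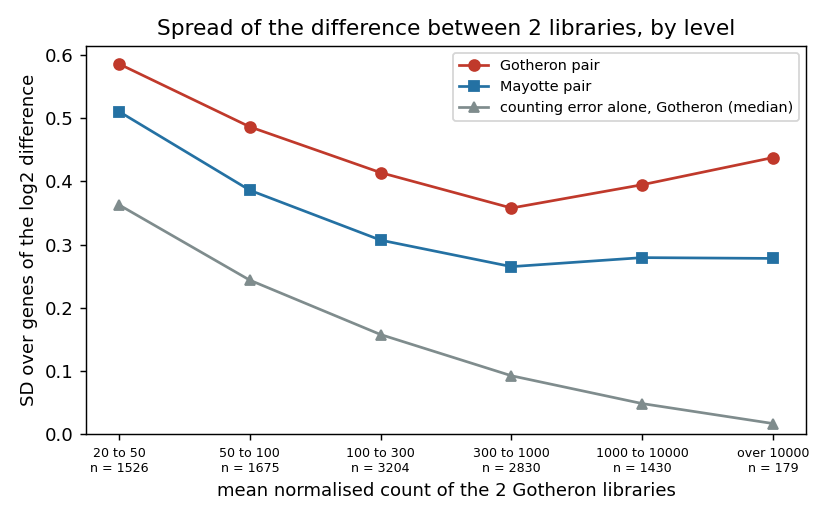
SD over genes of the log2 difference between the 2 libraries of a population (y axis) by mean normalised count in Gotheron (x axis, with the number of genes). Red circles are the Gotheron pair, blue squares the Mayotte pair and grey triangles the median SD that counting error alone gives in Gotheron. The Gotheron line lies above the Mayotte line at every level, at 0.59 against 0.51 for the lowest level and 0.44 against 0.28 for the highest.

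The median moved with abundance. It was -0.02 for genes from 20 to 50 and 0.20 for the 179 genes over 10000, while in Mayotte the same genes had medians of 0.02 and -0.14. Summed over the genes that were higher in apple, the excess over cornmeal was 1064932 normalised counts, or 10.6% of the library total, against 8.18% for banana over cornmeal in Mayotte. The deficit summed over the genes lower in apple is equal to it, because the totals are. The 10 genes lower in apple by the most counts held 23.7% of this deficit. They were among the abundant genes, with means from 25290 to 195464, and their log2 differences ran from -1.49 to -0.33, 4 of them at or past 2-fold. The 10 genes higher in apple by the most counts held 12.7% of the excess, with log2 differences from 0.24 to 1.30 and 1 of them past 2-fold. In Mayotte the balance was the other way, with 40.8% of the excess in 10 genes and 15.5% of the deficit in 10.

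The largest differences were led by the following 4 identifiers, the 2 highest and the 2 lowest in apple. FBgn0261336 had a normalised count of 255 in Gotheron cornmeal and 22.9 in Gotheron apple, with 55.2 in Mayotte cornmeal and 57.2 in Mayotte banana. The cornmeal library was the high one and the apple library the low one of the 4, with both Mayotte libraries between them. Its log2 difference was -3.42, from 252 and 23 reads, and the cornmeal value was 11.1 times the apple value with a 95% Clopper-Pearson interval of 7.25 to 17.9.

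FBgn0038394 had 221 in Gotheron cornmeal and 21.9 in Gotheron apple, with 31.7 in Mayotte cornmeal and 22.3 in Mayotte banana. The Gotheron cornmeal library stood apart at 6.96 times the higher Mayotte value, while the apple library was close to the Mayotte banana library. The log2 difference was -3.27, and the cornmeal value was 10.1 times the apple value (interval 6.48 to 16.4). Both genes had Mayotte differences under 2-fold, at 0.05 for FBgn0261336 and -0.49 for FBgn0038394.

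FBgn0187743 had the highest log2 difference, 3.03, with 6.08 in Gotheron cornmeal and 56.8 in Gotheron apple, and 16.4 and 43.6 in Mayotte cornmeal and banana. It had 6 reads in the cornmeal library, and the apple value was 9.35 times the cornmeal value (interval 4.04 to 26.5). The cornmeal library was the lowest of the 4, and the apple library was 1.30 times the Mayotte banana library. This gene was also higher in banana than in cornmeal in Mayotte, by 1.36 on the log2 scale.

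FBgn0193875 had 29.4 in Gotheron cornmeal and 202 in Gotheron apple, with 38.9 and 42.7 in Mayotte cornmeal and banana. Here the apple library was the one apart, at 4.74 times the higher Mayotte value, and the other 3 libraries lay near each other. The log2 difference was 2.74, and the apple value was 6.89 times the cornmeal value (interval 4.65 to 10.6). Its Mayotte difference was 0.13. Set against the SD of the Gotheron differences at their level, the differences were 5.17 times as large for FBgn0187743 and 6.63 for FBgn0193875. They were 7.91 times as large for FBgn0038394 and 8.26 for FBgn0261336. These genes were chosen as the largest of the same differences, so large multiples follow from the choice and are not evidence.

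The 12 genes ranked highest in apple ran from 2.15 to 3.03 on the log2 scale, and had between 5.06 and 242 normalised counts in cornmeal and between 34.9 and 1580 in apple. The cornmeal library was the lowest of the 4 libraries for 11 of them and the apple library was the highest for 9. The 12 ranked lowest ran from -3.42 to -1.94, with between 33.4 and 1476 in cornmeal and between 7.97 and 377 in apple. For 11 of these the cornmeal library was the highest of the 4, and for 6 the apple library was the lowest. In both sets of 12 the Gotheron cornmeal library was the extreme one more often than the apple library. These genes, and those at least 2-fold apart, were chosen for a wide Gotheron difference. Extreme Gotheron values therefore follow in part from the choice. Over the 190 genes at least 2-fold lower in apple the order was reversed. There the apple library was the lowest in 141 and the cornmeal library the highest in 126. Of the 199 higher in apple, the cornmeal library was the lowest in 150 and the apple library the highest in 146. Among all 10844 genes compared, the cornmeal library was the highest in 4090 and the lowest in 1692. The apple library was the highest in 3607 and the lowest in 2235. Of the 12 highest, however, 11 lay in the middle block of identifier numbers described below. In that block the cornmeal library was the lowest in 42.0% of genes and the apple library the highest in 53.1%. In Mayotte 3 of the 12 highest and 2 of the 12 lowest differed by at least 2-fold, where 1.42% of all genes compared did. Among genes with a mean from 20 to 50 that share was 5.05%. The 3 were all higher in banana, and the 2 went opposite ways, at -1.01 and 1.70.

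**Figure D3:**
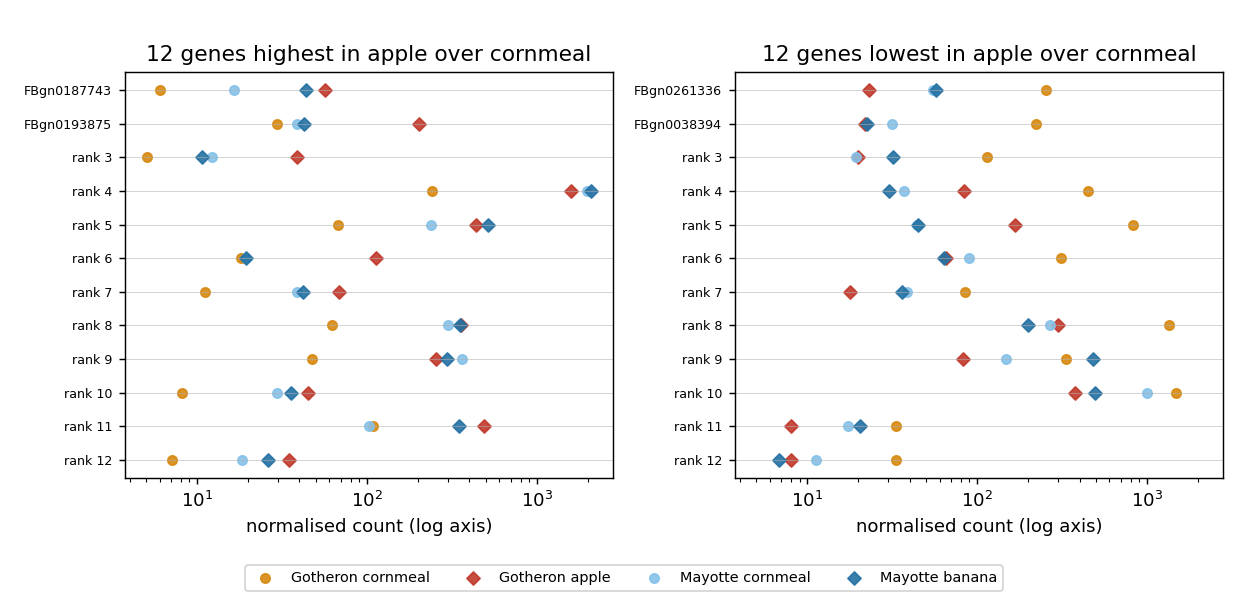
Normalised counts (log axis) of the 12 genes highest (left) and the 12 lowest (right) in Gotheron apple over Gotheron cornmeal, 1 gene a line in order of its difference. Each point is 1 library, with circles for cornmeal and diamonds for fruit medium, warm colours for Gotheron and blue for Mayotte. The Gotheron cornmeal point is the lowest of the 4 in 11 lines on the left and the highest in 11 lines on the right. The genes were chosen for their Gotheron difference, so extreme Gotheron points follow in part from the choice.

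The genes at least 2-fold apart were placed against the range of the Mayotte values. They were chosen for a wide Gotheron difference, so Gotheron values outside that range follow in part from the choice. The same shares over all genes compared were not computed. The counts of values outside the range can therefore not be read as particular to these genes. Of the 199 genes higher in apple, both Gotheron values fell outside the range of the Mayotte values in 144, the cornmeal value alone in 33 and the apple value alone in 21. The 144 split into 98 with the Gotheron values on opposite sides of that range and 46 with both on 1 side. Of the 190 genes lower in apple, both did so in 131, of which 77 were on opposite sides and 54 on 1 side, the cornmeal value alone in 27 and the apple value alone in 32. Most of these genes differed by less than 2-fold in Mayotte, but past 2-fold their shares were mostly above those of all genes compared, of which 1.01% were higher and 0.415% lower in banana. Of the 199, 14 were also at least 2-fold higher in banana (7.04%) and 1 was at least 2-fold lower (0.503%). Of the 190, 4 were also at least 2-fold lower in banana (2.11%) and 6 were at least 2-fold higher (3.16%). These shares were not matched for level, and 74 of the 199 and 47 of the 190 had means from 20 to 50. At that level 5.05% of all genes compared were at least 2-fold apart in Mayotte, either way. The fruits differ between the populations, and the overlap was not tested.

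The genes higher in apple were concentrated in 1 range of identifier numbers. The FlyBase numbers of the listed genes form 3 blocks parted by gaps of over 40000, from 8 to 87040 (low, 11317 genes), from 181806 to 197283 (middle, 3336 genes) and from 243486 to 261797 (high, 705 genes). The authors mapped reads to the D. melanogaster genome first, then those left unmapped to that of D. simulans, and kept a D. simulans identifier where no ortholog was found. The table does not mark which genes those are. The blocks were drawn after the values had been seen. Past the limit on low values were 9225 genes of the low block (81.5% of it), 1121 of the middle (33.6%) and 498 of the high (70.6%).

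The middle block held 10.3% of the genes compared and 131 of the 199 genes at least 2-fold higher in apple (65.8%). Of the genes lower in apple it held 4 of 190 (2.11%). The share of a block's genes at least 2-fold higher in apple was 11.7% in the middle block, 0.661% in the low block and 1.41% in the high block. Of the low block 1.88% were at least 2-fold lower, against 0.357% of the middle and 2.61% of the high block. The near balance of 199 against 190 was thus the sum of unlike blocks, and within the low block alone 61 genes were higher in apple and 173 lower.

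The difference in the middle block was a shift of most of its genes, not of a few. Its median was 0.31, with the middle 50% of genes between 0.04 and 0.65, and 870 of the 1121 genes (77.6%) were above 0. The medians of the low and high blocks were -0.06 and -0.01, and 42.3% and 48.2% of their genes were above 0. The middle block had medians of 0.42 at means from 20 to 50, 0.26 from 300 to 1000 and 0.33 from 1000 to 10000. The shift was thus present among well-counted genes. The share of its genes at least 2-fold higher in apple was 17.7%, 2.97% and 7.35% at these levels. Along the block, 16 stretches of 1000 identifier numbers with at least 20 genes each had medians from 0.23 to 0.49. In Mayotte the median of the middle block was -0.03, and the low and high blocks had medians of -0.04 and -0.01.

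**Figure D4:**
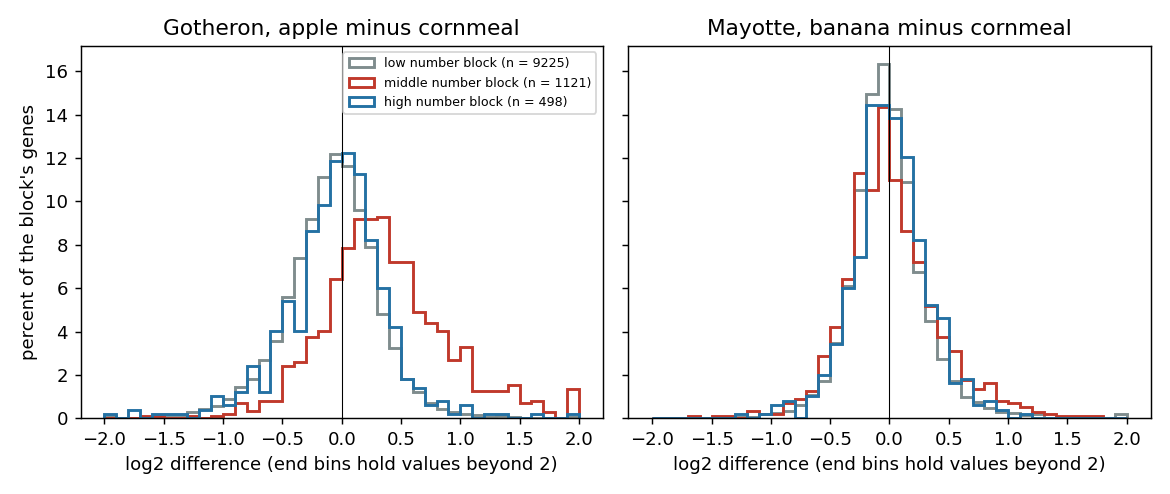
Distribution of the log2 difference in Gotheron (left, apple minus cornmeal) and Mayotte (right, banana minus cornmeal), as the percent of each block's genes in bins of the difference (x axis). Grey is the low, red the middle and blue the high block of identifier numbers. In Gotheron the red curve is displaced to the right, with a median of 0.31 against -0.06 for the low block. In Mayotte these medians are close, at -0.03 and -0.04, and the middle block is the wider (SD 0.40 against 0.34).

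By its total, the middle block was lowest in the Gotheron cornmeal library. It took 4.35% of the reads there (95% Wilson interval 4.33% to 4.36%, counting error only). It took 5.73% in Gotheron apple, 5.45% in Mayotte cornmeal and 5.62% in Mayotte banana. Of the 1121 genes, the Gotheron cornmeal library was the lowest of the 4 in 42.0% and the Gotheron apple library was the highest in 53.1%, so that gene by gene both libraries were often the extreme one. In the low block the cornmeal library was the lowest in 12.4% and the apple library the highest in 30.8%. What sets the libraries apart in the middle block was not tested, and medium and library cannot be told apart.

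**Figure D5:**
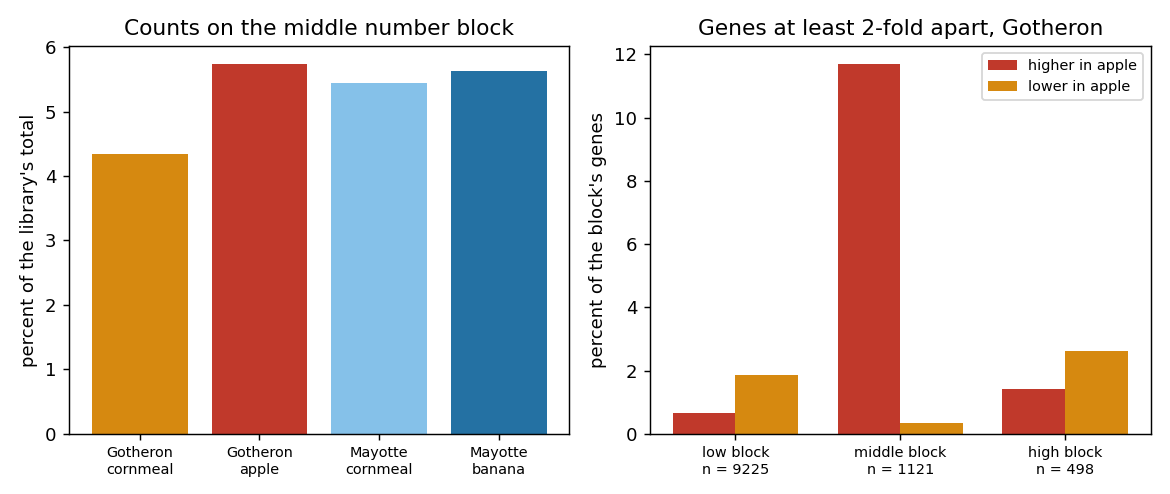
Left, percent of each library's total normalised count that fell on the middle block of identifier numbers. Right, percent of each block's genes at least 2-fold higher (red) or lower (orange) in Gotheron apple than in cornmeal. Gotheron cornmeal is the low bar on the left at 4.35%, and the middle block has the tall red bar on the right at 11.7%.

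Both leading genes higher in apple, FBgn0187743 and FBgn0193875, belong to the middle block, as do 11 of the 12 ranked highest. FBgn0187743 remained 2.72 and FBgn0193875 2.43 above the median of that block. Of the 12 lowest, 11 belong to the low block, FBgn0038394 among them, and 1 to the high block, which is FBgn0261336. When each block was set level on its own median, 147 genes were at least 2-fold higher in apple and 173 lower. The SD of the differences was then 0.42 in Gotheron and 0.34 in Mayotte, against 0.44 and 0.34 before. In the low block alone the SDs were 0.40 and 0.34, so the 2 pairs lay less far apart in spread there.

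The low block alone gives the contrast without the genes of the middle block. The authors moved reads mapped to D. simulans to the D. melanogaster ortholog where there was one. Whether what shifts the middle block also reaches the low block was not tested. The 12 genes of the low block highest in apple ran from 1.51 to 2.39 on the log2 scale. They had between 37.9 and 7355 normalised counts in apple and between 9.11 and 1920 in cornmeal. The apple library was the highest of the 4 for 9 of them and the cornmeal library was the lowest for 7. In Mayotte 3 of these 12 differed by at least 2-fold, where 1.29% of the low block did, and the highest Mayotte difference among them was 5.52. Over all 61 low-block genes at least 2-fold higher in apple, the median difference was 1.22 in Gotheron and 0.08 in Mayotte. Of the 61, 7 (11.5%) were also at least 2-fold higher in banana, where 0.921% of the low block were. These shares were not matched for level, and 18 of the 61 had means from 20 to 50. Over the 173 lower in apple the medians were -1.17 in Gotheron and 0.02 in Mayotte. In 127 of the 173 the apple library was the lowest of the 4, and in 116 the cornmeal library was the highest. Over the whole low block the apple library was the lowest in 21.9% of genes and the cornmeal library the highest in 41.0%.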

How the data were processed

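Whole-body poly(A) RNA of adult males was sequenced as 3′ tags in 4 libraries. The authors trimmed reads with seqclean and mapped 32-mers with ELAND (up to 2 mismatches) to the D. melanogaster and then the D. simulans genome. The submitters' processing notes name CASAVA. For genome builds and software versions, none is given in the sources used here. The deposited unit is a signal: the authors scaled the reads of each gene by a single factor per library. Divided by the smallest nonzero value, 100% of them came out whole within 0.01. An automatic check of such steps refused the reads of Gotheron apple, whose factor is close to 1. Counting intervals and counting errors therefore rest on reads it refused. No count test was run, since each medium has 1 library in Gotheron.

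Differences were computed as log2(normalised count + 1) in Python 3.11.15 with pandas 2.3.3 over the genes whose Gotheron mean was 20 or more. Scripts were tested on simulated data. Scaling alternatives used TMM factors of edgeR 4.0.16. Genes are named by rule, the largest differences each way, and 2 identifiers in each direction are printed because none is paired with a name. Gene lists by symbol were not used, since no identifier has a symbol. The comparison and lists were chosen with earlier results of these data known.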

Additional observations from a re-analysis of the deposited data

Results flagged for a closer look

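The difference between fruit and cornmeal medium had opposite signs in the 2 populations for FBgn0261336, at -3.42 in Gotheron and 0.0503 in Mayotte on the log2 scale. The Mayotte value is far under the SD of 0.31 of Mayotte differences at that level, so that it has no clear direction. The median of the middle block of identifier numbers was 0.313 in Gotheron and -0.0303 in Mayotte. The difference between the populations was not tested in either case, since each population and medium has 1 library and the fruits differ.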

How the results depend on the processing

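The counts of genes moved with the limits. Without a filter on low values 740 genes were at least 2-fold higher and 931 lower in apple, and the SD of the Mayotte differences was 0.56. With a mean of at least 5 the counts were 366 and 362, and with a mean of at least 100 they were 88 and 100. At 1.5-fold 675 genes were higher and 925 lower, and at 4-fold 16 and 8. With the low block of identifiers alone, chosen after seeing the data, 61 were higher and 173 lower. The 3 scalings gave 193 to 201 higher and 178 to 196 lower. The shift of the middle against the low block, 0.38 on the log2 scale, lay between 0.32 and 0.41 under all 9 scalings, pseudocounts and filters, and the 4 named genes kept their direction under the 6 alternatives run for them.

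No paired analysis was possible because each population and medium has 1 library. With 1 library a side none was left out, and the gene lists were not run. Low genes carry a wide counting error at this depth.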
